A study of Homo sapiens with 4 samples.

Results

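The CLK, DYRK and SRPK kinases examined here are 10 genes, CLK1 to CLK4, DYRK1A, DYRK1B, DYRK2, DYRK3, SRPK1 and SRPK2, out of 25268 gene symbols measured by RNA-Seq. They were picked by symbol, and each had a single row in the table. The cells were SK-MEL-28, an established human melanoma line, stably transduced by lentivirus with an empty pTRIPZ vector (vector cells) or with MYC behind a Tet-inducible promoter (MYC cells), and both were grown in medium with G418. Doxycycline (Dox), the drug that switches on such a promoter, was given for 54 h to 1 culture of each, and another was left without it. The 4 libraries are therefore untreated vector cells, Dox-treated vector cells, untreated MYC cells and Dox-treated MYC cells. Each condition had 1 library, so differences between conditions could not be tested or checked against replicates. Whether the cells were a clone or a pool is not given in the sources used here.

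CLKs (Cdc2-like kinases) work in the nucleus, where they phosphorylate the arginine-serine repeats of SR proteins and release these splicing factors from nuclear speckles. SRPKs phosphorylate the same proteins mostly in the cytoplasm, which promotes their import into the nucleus. DYRKs activate themselves by phosphorylating a tyrosine and then phosphorylate serine and threonine in many proteins, among them NFAT transcription factors, splicing factors and cell cycle regulators. The question addressed by Dox treatment of MYC cells is whether the mRNA of these kinases changes when MYC is induced.

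The values are FPKM, that is, fragments per kilobase of transcript and per 1000000 mapped fragments, which are per length and so allow levels of different genes to be set side by side. They summed to between 692146 and 715495 per library, and the depth, inferred from genes at very low values, was approximately 35321200 to 42631400 fragments. MYC was at 58.3 FPKM in untreated vector cells, 54.8 FPKM in Dox-treated vector cells, 76.5 FPKM in untreated MYC cells and 87.1 FPKM in Dox-treated MYC cells. The log2 change of MYC with Dox was thus 0.19 in MYC cells, short of 1.5-fold, and endogenous and introduced MYC cannot be told apart in it. MYC mRNA was therefore not called as raised by Dox within MYC cells, and the changes below are changes with Dox. Against vector cells, MYC in MYC cells was higher by a log2 difference of 0.67 with Dox in both, past 1.5-fold. Without Dox that difference was already 0.39. The paper reports that Dox raised MYC mRNA by RT-PCR, and the activity of a MYC reporter, in its MYC-inducible SK-MEL-28 cells. All 7 melanocyte markers were present, at 14.2 to 6227 FPKM, and their sum was 4414 FPKM in Dox-treated MYC cells against 7771 to 7911 FPKM in the other libraries. PMEL and MLANA made up most of this sum. With Dox in MYC cells the log2 change was -0.86 for PMEL, -0.74 for MLANA, -0.70 for TYR and -0.97 for TYRP1. It was -0.43 for DCT, -0.42 for MITF and -0.30 for SOX10, short of 1.5-fold. In vector cells it was -0.35 for TYRP1 and -0.29 for DCT, and between -0.12 and 0.05 for the other markers. With Dox in both lines, MYC cells differed from vector cells by -0.88 for PMEL, -0.87 for MLANA and -0.55 for TYR. That difference was -0.35 for MITF and -0.32 for SOX10, but only -0.15 for TYRP1 and 0.07 for DCT. Of the epithelial markers, EPCAM was at 2.71 FPKM in Dox-treated MYC cells and at 0.658 to 0.769 FPKM elsewhere, KRT14 was at most 0.195 FPKM and KRT5 was listed at 0. The fibroblast markers COL1A1 and DCN were at most 0.146 FPKM and the leukocyte marker PTPRC at most 0.00984 FPKM.

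RefSeq windows around annotated transcription start sites are shown for SRPK1, the member that rose with Dox in MYC cells, and for members whose windows hold CACGTG, the E-box bound by MYC with its partner MAX. The windows run from 250 bases before to 50 bases after a start on GRCh38.p14, a later build than the hg19 of the expression values. Windows were found for 9 of the 10 members, 19 in all, and DYRK2 was not matched. The SRPK1 window is chr6:35921049-35921348 and the CLK2 window is chr1:155273455-155273754, both on the minus strand. The stretches of 40 bases come from chr5:178627139-178627178 for CLK4 and chr19:39834202-39834241 for DYRK1B, both on the minus strand, and from chr21:37366577-37366616 on the plus strand for DYRK1A. Capitals mark CACGTG, and each sequence is written 5′ to 3′ on the strand of the gene.
SRPK1: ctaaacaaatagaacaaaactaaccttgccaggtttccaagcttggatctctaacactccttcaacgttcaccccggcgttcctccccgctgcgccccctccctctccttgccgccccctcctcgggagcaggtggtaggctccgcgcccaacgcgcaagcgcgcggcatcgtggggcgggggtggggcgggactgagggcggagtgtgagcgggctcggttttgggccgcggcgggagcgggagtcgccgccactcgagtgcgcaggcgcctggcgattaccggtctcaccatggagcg
CLK2: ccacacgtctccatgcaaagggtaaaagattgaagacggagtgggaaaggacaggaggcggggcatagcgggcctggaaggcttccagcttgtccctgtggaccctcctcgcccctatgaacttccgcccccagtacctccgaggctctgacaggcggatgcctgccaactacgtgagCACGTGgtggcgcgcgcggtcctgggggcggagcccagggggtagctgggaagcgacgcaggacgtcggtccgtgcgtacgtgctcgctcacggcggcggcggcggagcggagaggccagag
CLK4: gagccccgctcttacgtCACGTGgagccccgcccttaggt
DYRK1B: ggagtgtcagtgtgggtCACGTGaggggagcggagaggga
DYRK1A: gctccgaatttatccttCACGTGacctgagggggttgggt
CACGTG, which reads the same on both strands, began at position -72 relative to the start for CLK2, -111 for CLK4, -62 for DYRK1B and -179 in 1 of the 6 windows of DYRK1A. No window of CLK1, CLK3, DYRK3, SRPK1 or SRPK2 held it. Of the 35116 windows of all genes, 7.26% did, and counted per gene it was held by 8.77% of 27305 genes. The related CACGCG, searched on both strands and held by 11.4% of all windows, was found for CLK3, DYRK3 and DYRK1A, and CATGTG, likewise searched and held by 11.1%, was found for SRPK2. The SRPK1 window held none of the 3. The shares given for CACGCG and CATGTG are per window, not per gene. A match describes the letters only, and binding was not measured here.

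All 10 kinases exceeded a mean of 1 FPKM, the level required for a gene to be compared, which 11147 genes reached. CLK3 and CLK1 were the highest, with means of 21.1 and 19.5 FPKM over the 4 libraries, above 67.8% and 66.3% of the genes compared. SRPK1 followed at 12.8 FPKM, DYRK3 at 9.99 FPKM, SRPK2 at 9.64 FPKM, CLK2 at 7.57 FPKM, DYRK1A at 6.71 FPKM and DYRK2 at 6.01 FPKM. DYRK1B and CLK4 were the lowest, with means of 2.45 and 2.41 FPKM. Several neighbours in this order changed places between libraries, so the order of the means does not hold in every library. SRPK1, at 20.2 FPKM in Dox-treated MYC cells and 10.1 to 10.8 FPKM elsewhere, was above CLK1 in that library and below DYRK3 in Dox-treated vector cells. CLK1 was above CLK3 in both vector libraries and below it in both MYC libraries, DYRK1A was above DYRK2 except in Dox-treated MYC cells, DYRK3 was above SRPK2 only in vector cells, and CLK4 was below DYRK1B only in untreated MYC cells. The highest library of CLK2 was 1.07 times its lowest, the narrowest range of the 10, and that of SRPK1 was 2.01 times, the widest.

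**Figure D1:**
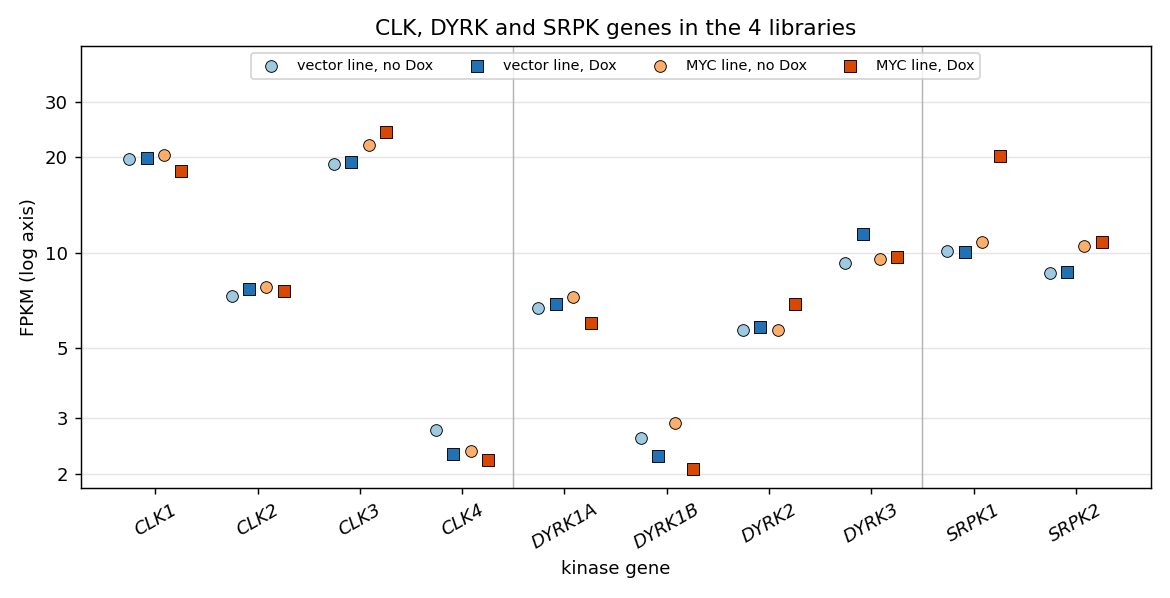
FPKM of the 10 kinase genes (log axis), 1 point per library, with circles for untreated and squares for Dox-treated cells of the vector (blue) and MYC (orange) lines. SRPK1 in Dox-treated MYC cells, at 20.2 FPKM, stands apart from its other 3 values of 10.1 to 10.8 FPKM.

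Changes are differences of log2(FPKM + 0.1) between a pair of libraries, a scale that understates the change of low genes, and a gene is said to have risen or fallen when it passed 1.5-fold, a log2 change of 0.58. In MYC cells, 1 of the 10 kinases, SRPK1, rose with Dox and none fell. Of all genes compared, 5.9% rose and 8.85% fell, 14.7% in either direction. The kinases had a median change of -0.0066, beside -0.03 over all genes, and a median size of change of 0.15, beside 0.24. In vector cells none of the kinases passed 1.5-fold with Dox, while 0.709% of all genes rose and 0.44% fell, 1.15% in either direction. In bulk RNA, a different make-up of the culture and a different amount of RNA per cell cannot be told apart.

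SRPK1 is the kinase whose phosphorylation of SR proteins readies them for nuclear import. It lies on chromosome 6 of GRCh37 from 35800743 to 35889119 on the minus strand, with 16 exons in its canonical transcript. It was at 10.1 FPKM in untreated vector cells, 10.1 FPKM in Dox-treated vector cells, 10.8 FPKM in untreated MYC cells and 20.2 FPKM in Dox-treated MYC cells. The last library was 1.88 times the highest of the others, which lay close together. On the log2 scale Dox changed SRPK1 by 0.90 in MYC cells, a 1.87-fold rise, and by -0.0041 in vector cells. The approximate counting errors of these changes were 0.0602 and 0.0751, and they cover the sampling of fragments only, not the difference between cultures. Of the 11147 genes, 172, SRPK1 included, had a change at least as high in MYC cells. The melanocyte marker sum was lowest and EPCAM highest in the same library, and their part in the SRPK1 value was not tested. LHFPL5, which overlaps SRPK1 on the opposite strand, was listed at 0 throughout.

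SRPK2, the close relative of SRPK1 that acts on the same class of substrates, is on chromosome 7 from 104751151 to 105039755. It was at 8.63 FPKM in untreated and 8.66 FPKM in Dox-treated vector cells, and at 10.5 FPKM in untreated and 10.8 FPKM in Dox-treated MYC cells. Its values separated by line and not by Dox. Its log2 change with Dox was 0.04 in MYC cells, or -0.0087 once libraries were scaled to equal sums, and 0.0046 in vector cells. Without Dox, MYC cells were 0.28 above vector cells, with an approximate 95% counting interval of 0.14 to 0.42. Of all genes, 5.39% differed at least that far between untreated cells. SRPK1 made up 53.9% and 53.7% of the summed SRPK FPKM in untreated and Dox-treated vector cells, 50.7% in untreated MYC cells and 65.3% in Dox-treated MYC cells. The ratio of SRPK1 to SRPK2 was accordingly 1.17, 1.16, 1.03 and 1.88 in the same order. KMT2E overlaps SRPK2 on the opposite strand and was at 1.14 to 1.77 FPKM.

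CLK1 and CLK4 are the most similar pair of the CLK family. CLK1, on chromosome 2 from 201717732 to 201729414, was at 19.8 FPKM in both vector libraries, 20.4 FPKM in untreated MYC cells and 18.2 FPKM in Dox-treated MYC cells. The last was the lowest of the 4, at 0.918 of the nearest other. CLK4, on chromosome 5 from 178029665 to 178057616, was at 2.75 and 2.31 FPKM in untreated and Dox-treated vector cells and at 2.35 and 2.21 FPKM in untreated and Dox-treated MYC cells, so its highest library was the untreated vector cells. Neither gene passed 1.5-fold with Dox in either line. For MYC cells the approximate 95% counting interval of the log2 change was -0.29 to -0.05 for CLK1 and -0.43 to 0.26 for CLK4. CLK4 rested on approximately 118 to 157 fragments per library, the fewest of the members. The approximate counting error of its change in MYC cells was 0.18, and a change whose 95% counting interval includes 0 could not be told from counting noise at this depth.

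CLK2, the family member against which the inhibitor of the study was developed, is on chromosome 1 from 155232659 to 155248282. It was at 7.28 FPKM in untreated vector cells, 7.65 FPKM in Dox-treated vector cells, 7.77 FPKM in untreated MYC cells and 7.57 FPKM in Dox-treated MYC cells. The library of Dox-treated MYC cells lay inside the range of the other 3. The approximate 95% counting interval of its log2 change with Dox in MYC cells, -0.22 to 0.15, lay within 1.5-fold in both directions. CLK2P, a pseudogene copy of CLK2, was listed at 0 in all libraries, and how reads matching both were assigned is not given in the sources used here. HCN3 overlaps CLK2 on the opposite strand and was at 0.465 to 0.827 FPKM.

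CLK3, on chromosome 15 from 74890841 to 74937755, was at 19.1 and 19.4 FPKM in untreated and Dox-treated vector cells and at 21.9 and 24.0 FPKM in untreated and Dox-treated MYC cells. Both MYC libraries were above both vector libraries. On the log2 scale, untreated MYC cells exceeded untreated vector cells by 0.20, and Dox changed CLK3 by 0.13 in MYC cells and 0.02 in vector cells. None of these passed 1.5-fold. EDC3 overlaps CLK3 on the opposite strand and was at 10.2 to 11.5 FPKM, highest in the same library as CLK3, and whether reads of one were counted for the other was not tested.

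Added together, the 4 CLK genes came to 48.9 and 49.1 FPKM in untreated and Dox-treated vector cells and to 52.4 and 51.9 FPKM in untreated and Dox-treated MYC cells. The log2 change of the sum with Dox was -0.01 for MYC cells. Within it, CLK1 made up 38.9% in untreated and 35.0% in Dox-treated MYC cells, and CLK3 made up 41.8% and 46.2%. CLK1 and CLK3 thus lay further apart with Dox, at a nearly level sum. In vector cells CLK1 made up 40.5% and 40.4% and CLK3 39.0% and 39.4%.

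**Figure D2:**
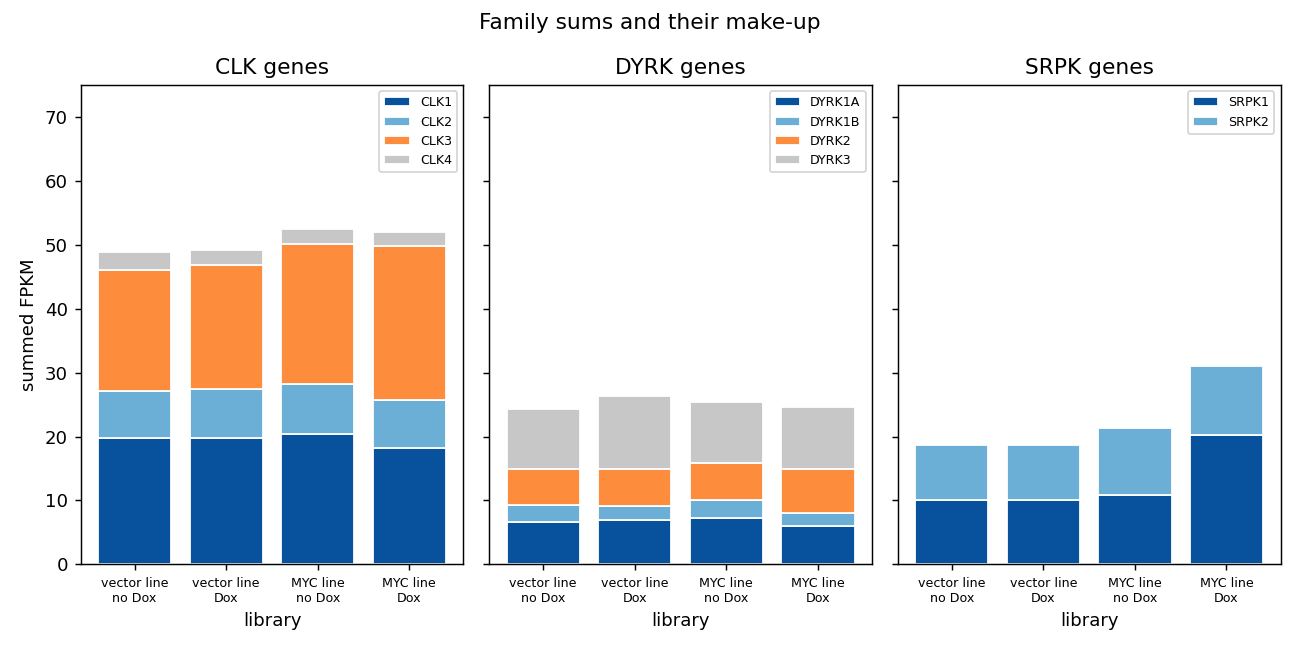
Summed FPKM of the CLK, DYRK and SRPK genes in each of the 4 libraries, with each bar divided by member. The SRPK bar is 31.0 FPKM in Dox-treated MYC cells and 18.7 to 21.3 FPKM in the others, while the CLK bars lie between 48.9 and 52.4 FPKM.

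DYRK1A and DYRK1B are the closely related pair of the DYRK family. DYRK1A, which phosphorylates NFAT factors and LIN52, lies on chromosome 21 from 38737875 to 38898660. It was at 6.70 and 6.89 FPKM in untreated and Dox-treated vector cells, 7.23 FPKM in untreated MYC cells and 6.0 FPKM in Dox-treated MYC cells, the lowest of the 4. Its log2 change with Dox was -0.26 in MYC cells, with an approximate 95% counting interval of -0.43 to -0.10, and 0.04 in vector cells. Of all genes, 46.9% changed at least that far in MYC cells. DYRK1B, a kinase linked to quiescence, lies on chromosome 19 from 40315990 to 40324841. It was at 2.60 and 2.26 FPKM in untreated and Dox-treated vector cells and at 2.89 and 2.06 FPKM in untreated and Dox-treated MYC cells, so both lines had less with Dox. Its log2 change of -0.47 in MYC cells was the furthest below 0 among the members and the nearest to the threshold without passing it. In vector cells the change was -0.19, with an approximate 95% counting interval of -0.50 to 0.12 that included 0. Approximately 151 to 232 fragments per library stood behind DYRK1B, and the counting error of its change in MYC cells was 0.15.

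DYRK2 and DYRK3 belong to the other branch of the family. DYRK2, a scaffold of a ubiquitin ligase and a kinase of the proteasome, lies on chromosome 12 from 68042118 to 68059186. It was at 5.68 FPKM in untreated vector cells, 5.80 FPKM in Dox-treated vector cells, 5.67 FPKM in untreated MYC cells and 6.87 FPKM in Dox-treated MYC cells. The last value was 1.18 times the highest of the other 3, with a log2 change of 0.27 in MYC cells and 0.03 in vector cells, short of 1.5-fold. DYRK3, which controls the dissolution of stress granules and other condensates, lies on chromosome 1 from 206808881 to 206857764. It was at 9.25 FPKM in untreated and 11.4 FPKM in Dox-treated vector cells, and at 9.56 and 9.71 FPKM in untreated and Dox-treated MYC cells. Its high library was the Dox-treated vector cells, where the log2 change was 0.30 with an approximate 95% counting interval of 0.15 to 0.46, a size that 4.73% of all genes reached. For MYC cells the change was 0.02, or -0.02 with libraries scaled to equal sums. The DYRK genes together came to 24.2 and 26.4 FPKM in untreated and Dox-treated vector cells and to 25.3 and 24.6 FPKM in untreated and Dox-treated MYC cells.

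**Figure D3:**
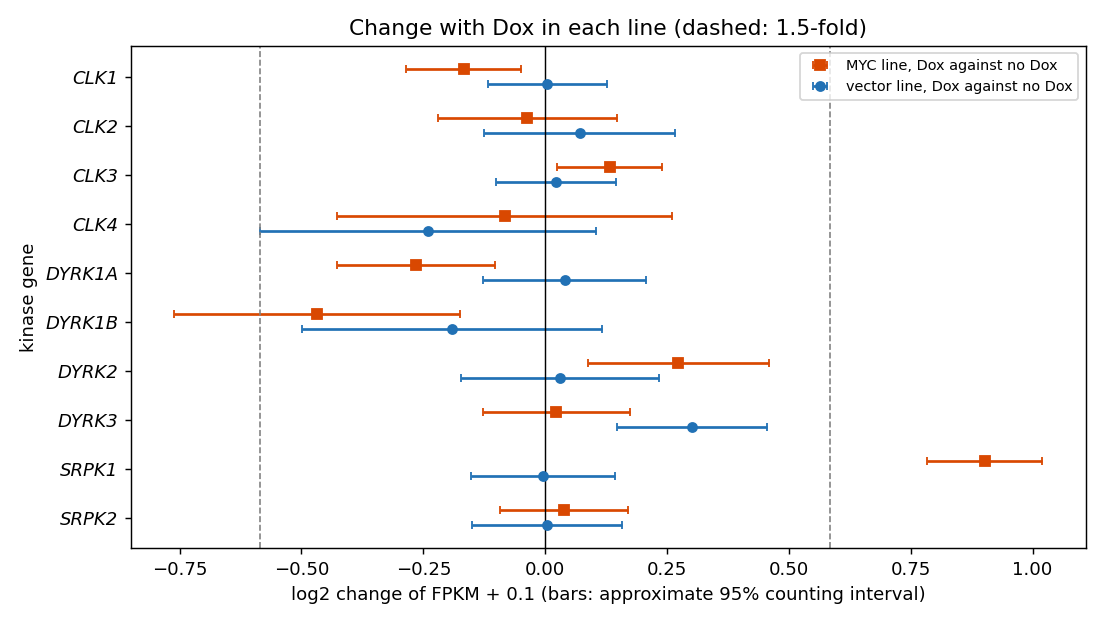
Log2 change of FPKM + 0.1 with Dox for the 10 kinases in MYC cells (squares) and vector cells (circles), with approximate 95% counting intervals that leave out differences between cultures. SRPK1 in MYC cells, at 0.90, is the only point beyond the dashed 1.5-fold lines, and DYRK1B at -0.47 is the nearest inside them.

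MYC cells can also be set against vector cells with Dox in both, a comparison that uses the same library of Dox-treated MYC cells. SRPK1 was the 1 member past 1.5-fold, with a log2 difference of 1.0, and of all genes 6.5% were higher and 8.62% lower, 15.1% in either direction. The differences were 0.31 for CLK3, 0.31 for SRPK2, 0.24 for DYRK2, -0.23 for DYRK3, -0.20 for DYRK1A, -0.13 for DYRK1B, -0.13 for CLK1, -0.06 for CLK4 and -0.02 for CLK2. Without Dox, none of the 10 differed by 1.5-fold between the lines, and of all genes 0.592% were higher and 0.287% lower in MYC cells, 0.879% in either direction. Those differences lay between -0.22 for CLK4 and 0.28 for SRPK2. The value in Dox-treated MYC cells lay above the range of the other 3 libraries for 4 kinases (CLK3, DYRK2, SRPK1 and SRPK2) and below it for 4 (CLK1, CLK4, DYRK1A and DYRK1B). Over all genes it lay above for 40.2% and below for 42.9%, 83.1% in all, so 8 of 10 kinases is near the background.

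The substrates and partners of the kinases were taken as lists. All 14 genes of the SR proteins, which CLKs and SRPKs phosphorylate, were above the expression limit, and none passed 1.5-fold with Dox in either line. Of all genes, 14.7% passed 1.5-fold in MYC cells and 1.15% in vector cells, which is also the background for the lists below. In MYC cells 12 of the 14 had a change above 0 and the median was 0.22, beside -0.03 over all genes, while in vector cells the median was 0.01. The share of all genes with a change above 0 was not counted. SRSF1, an SR protein that regulates alternative splicing, was at 40.1 and 39.9 FPKM in untreated and Dox-treated vector cells and at 41.6 and 57.0 FPKM in untreated and Dox-treated MYC cells. Its log2 change of 0.45 in MYC cells was the highest of the list, followed by SRSF2 at 0.40, SRSF3 at 0.33 and SRSF7 at 0.31, and the lowest were SRSF8 at -0.15 and SRSF12 at -0.30. PRMT5, an arginine methyltransferase with spliceosomal proteins among its substrates, rose in MYC cells from 34.1 to 57.1 FPKM, a log2 change of 0.74. It was at 35.2 and 36.7 FPKM in untreated and Dox-treated vector cells.

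Among 8 proteins of nuclear speckles, where CLKs act, none passed 1.5-fold with Dox in either line. In MYC cells 7 had a change above 0, without a share of all genes to set beside it. The median was 0.20 in MYC cells and 0.08 in vector cells. The highest in MYC cells was PNISR at 0.40, and CLASRP, named for its binding to CLK4, was at 0.26. Of 13 partners and substrates of DYRKs, 12 were above the expression limit, NFATC4 was listed at 0, and the median was 0.14 in MYC cells and 0.03 in vector cells. NFATC2, a transcription factor of a family that DYRK phosphorylation keeps out of the nucleus, was the 1 gene that fell, from 8.37 to 4.40 FPKM in MYC cells, a log2 change of -0.91. This is 1 of 12 genes, near the 8.85% of all genes that fell. It was at 8.68 and 6.64 FPKM in untreated and Dox-treated vector cells, a change of -0.38, and with Dox in both its difference of -0.58 between the lines was just short of 1.5-fold. RCAN1, a regulator of calcineurin, was at 26.8 and 33.1 FPKM in untreated and Dox-treated vector cells and at 29.2 and 21.3 FPKM in untreated and Dox-treated MYC cells. Its log2 changes of 0.30 and -0.45 were short of 1.5-fold, and with Dox in both it was lower in MYC cells by a log2 difference of -0.63, past 1.5-fold. DCAF7, the adaptor of DYRK1A and DYRK1B, had a change of 0.48 in MYC cells, and SIAH2, a ubiquitin ligase, of 0.51.

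Of 11 related kinases outside the members, 9 were above the expression limit and none passed 1.5-fold with Dox in either line. SRPK3, mainly a muscle kinase, was at most 0.0917 FPKM, and HIPK4 at most 0.0116 FPKM. DYRK4 was at 9.88 to 11.4 FPKM, HIPK1 at 5.77 to 6.41 FPKM and PRPF4B, a kinase of the spliceosome, at 5.53 to 6.16 FPKM. CDK12, which phosphorylates RNA polymerase II, had the highest change of the list in MYC cells, 0.33, and the median was 0.03. The 5 catalytic phosphatase subunits had a median of -0.11 in MYC cells and 0.02 in vector cells, and in MYC cells they ranged from -0.29 for PPP1CA to 0.37 for PPP1CC.

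For SRPK1 and DYRK1B, the members with the largest changes in MYC cells, the genes with the most similar pattern over the 4 libraries were found by the distance between log2 values centred on each gene's mean. Nearest to SRPK1 were C1QBP at a distance of 0.0374, HSPD1 at 0.0417 and PODXL2 at 0.0456. C1QBP, a protein of the mitochondrial matrix, was at 267 and 272 FPKM in untreated and Dox-treated vector cells and at 283 and 527 FPKM in untreated and Dox-treated MYC cells. HSPD1, the mitochondrial chaperonin, had 528, 533, 586 and 1085 FPKM in the same order. These genes were picked for their likeness to SRPK1 over the same libraries, so the shared high library follows from the choice. Nearest to DYRK1B were PRCP at 0.0380, TWSG1 at 0.0406 and IVNS1ABP at 0.0429. PRCP, a peptidase of lysosomes, was at 44.5 and 37.6 FPKM in untreated and Dox-treated vector cells and at 48.2 and 34.6 FPKM in untreated and Dox-treated MYC cells. That it was lower with Dox in both lines likewise follows from the choice.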

How the data were processed

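RNA-Seq was done on SK-MEL-28 vector cells and MYC cells, each untreated or given Dox for 54 h, as 4 libraries in all. The table, as the authors deposited it, holds FPKM for 27032 rows. The submitters' processing notes name TopHat2 2.0.14, Cufflinks, hg19 and GRCh37, and neither the annotation nor the use of strand is given in the sources used here. One nameless row was dropped, and rows sharing a symbol (609 symbols) were added up.

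FPKM are not counts, so no count model was fitted. Genes averaging 1 FPKM or more were compared as differences of log2(FPKM + 0.1). Depth was estimated from genes below 0.2 FPKM in every library that have 1 annotated transcript of 1500 bases or longer, by the commonest step. Fragments behind a member are approximate minimum values from its coding length (GENCODE release 44 on GRCh37), and 95% intervals cover counting only. The rule named every member, MYC, PRMT5, SRSF1, list genes past 1.5-fold and the 3 genes of nearest pattern for each of the 2 members with the largest changes. Other list genes and overlapping genes were named after their values were seen. The members and lists were chosen with earlier results of these data known. Alternatives were other pseudocounts, scalings, expression limits, thresholds, handling of repeated symbols and the other reference library. Calculations were tested on simulated data. Software was matplotlib 3.10.9, numpy 2.4.6 and pandas 2.3.3 under Python 3.11.15.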

Additional observations from a re-analysis of the deposited data

Results flagged for a closer look

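For 4 kinases the log2 change with Dox had opposite signs in MYC and vector cells, and with 1 library per condition this contrast has no test, so whether the lines differ was not tested. The share of all genes with opposite signs was not counted, so this number cannot be read as a trait of the kinases. The vector change was near 0 for CLK1, at 0.0043, and for SRPK1, at -0.0041. Each of 3 scalings turned the vector change of CLK1 below 0, and its signs were then no longer opposite. The change in MYC cells minus that in vector cells was 0.91 for SRPK1, -0.30 for DYRK1A, -0.17 for CLK1 and -0.11 for CLK2. In vector cells the approximate 95% counting interval of the change included 0 for each of them, from -0.15 to 0.14 for SRPK1, -0.13 to 0.21 for DYRK1A, -0.12 to 0.13 for CLK1 and -0.12 to 0.27 for CLK2.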

How the results depend on the processing

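No paired analysis was possible because there is 1 library per condition. Of 252 recalculated counts for members and lists, 250 stayed equal or within 1.5 times. Most of these were 0 under the main setting and remained 0, so they say little about how stable the results are. Member counts could not change with the handling of repeated symbols or without an expression limit. The 2 counts that moved did so with a 2-fold threshold, at which 0 kinases rose and 0 DYRK partners fell with Dox in MYC cells. The change of SRPK1 with Dox in MYC cells ranged from 0.85 to 0.93. With Dox-treated vector cells as the reference, the difference was 1.0. Of 190 recalculated values for single members 186 moved by less than their counting interval, and 4 moved further when Dox-treated vector cells replaced untreated MYC cells as the reference, to 0.31 for CLK3, 0.31 for SRPK2, -0.13 for DYRK1B and -0.23 for DYRK3. Scaling to equal sums turned the sign of DYRK3 to -0.02 and SRPK2 to -0.0087 in MYC cells, and each of 3 scalings turned that of CLK1 and SRPK2 in vector cells, all uncalled values near 0. Over all genes, the numbers higher and lower with Dox in MYC cells, 658 and 986, became 1138 and 1748 with no expression limit, 436 and 549 with a limit of 5 FPKM and 117 and 228 at 2-fold. In vector cells, 79 and 49 became 529 and 387, 25 and 8, and 28 and 15, and 43 and 22 with a pseudocount of 1. With Dox in both lines, 724 and 961 became 1295 and 1761, 438 and 570, and 132 and 231. Without Dox, 66 and 32 became 501 and 347, 16 and 10, and 24 and 18, and 34 and 21 with a pseudocount of 1. The limit of 5 FPKM leaves no value for CLK4 and DYRK1B, the members that depth limits most.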
